A study of Mus musculus with 7 samples.

Results

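The heavy chain V segments that lie outside the Ighv1 family were followed in RNA of mouse splenic B cells. They were taken as all rows of the deposited table whose symbol begins with Ighv, a family number other than 1 and a hyphen. Of 183 Ighv rows, 91 met this rule and 92 belonged to Ighv1. The 68 segments with 10 or more reads summed over the 7 libraries are described, and the other 23, none with more than 6 reads in a library, are left out. The 68 fall into 14 families, with 11 segments each in Ighv5 and Ighv8, 10 in Ighv2, 8 in Ighv3, 5 in Ighv6, 4 each in Ighv7, Ighv9 and Ighv14, 3 in Ighv12, 2 each in Ighv4, Ighv10 and Ighv11, and 1 each in Ighv13 and Ighv15.

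The study set B cells labelled cKO MED1 (n = 4) against wild-type (WT) B cells (n = 3). Med1 is a subunit of Mediator, the complex that connects enhancer-bound factors with RNA polymerase II. All 7 cultures were of B cells purified from spleen and held for 4 days with 1 µg/mL of the bacterial activator LPS and 20 ng/mL of the cytokine IL-4, and total RNA without ribosomal RNA was sequenced. The labels give neither the Cre driver nor the age or strain of the mice, nor whether each replicate was a separate mouse, and p-values therefore measure only the spread between 7 libraries. The IgH alleles that each group carried are likewise not stated, so a difference in IgH alleles between the groups and the Med1 genotype cannot be told apart in these counts.

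A heavy chain variable domain is assembled in developing B cells when a V segment is joined to a D and a J segment upstream of the constant genes, and each B cell normally makes its heavy chain from a single rearranged allele. Ighv1 is the largest mouse family and lies mostly at the end of the locus far from D and J, while the families described here lie mainly in the near and middle part, with Ighv8 scattered among the far Ighv1 segments. In activated splenic B cells most RNA of a V segment comes from rearranged genes driven by the promoter of the joined V segment and the IgH enhancers. In bulk RNA, fewer cells that carry a segment and less RNA per such cell cannot be told apart.

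The first 300 bases of the coding V exon are shown for segments on which the results below turn, read 5′ to 3′ on the minus strand of chromosome 12 in GRCm38, as annotated by GENCODE M21. The first set pairs a segment that was low in WT with the segment of its family most like it in sequence. Capitals mark the bases at which the pair differ, and identities are over the whole V exon. Ighv4-2 (chr12:114013151-114013450), annotated as a pseudogene, and Ighv4-1 (chr12:113948289-113948588) were 95.8% identical, Ighv3-2 (chr12:114033809-114034108), also an annotated pseudogene, and Ighv3-1 (chr12:113964395-113964694) were 94.5% identical with 1 base missing from Ighv3-2, and Ighv7-2 (chr12:113912042-113912341) and Ighv7-3 (chr12:114153195-114153494) were 95.2% identical.
Ighv4-2: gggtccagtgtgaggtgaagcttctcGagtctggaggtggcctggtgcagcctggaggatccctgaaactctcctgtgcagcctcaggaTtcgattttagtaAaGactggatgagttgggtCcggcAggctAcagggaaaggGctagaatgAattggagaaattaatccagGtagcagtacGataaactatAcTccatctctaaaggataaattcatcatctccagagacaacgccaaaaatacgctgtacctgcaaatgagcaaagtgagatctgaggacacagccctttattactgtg
Ighv4-1: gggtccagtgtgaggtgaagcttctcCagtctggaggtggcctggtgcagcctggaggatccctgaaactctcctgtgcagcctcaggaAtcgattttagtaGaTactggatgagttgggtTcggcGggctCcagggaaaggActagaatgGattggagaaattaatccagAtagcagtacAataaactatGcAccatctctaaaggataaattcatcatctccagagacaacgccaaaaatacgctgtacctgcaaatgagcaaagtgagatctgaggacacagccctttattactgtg
Ighv3-2: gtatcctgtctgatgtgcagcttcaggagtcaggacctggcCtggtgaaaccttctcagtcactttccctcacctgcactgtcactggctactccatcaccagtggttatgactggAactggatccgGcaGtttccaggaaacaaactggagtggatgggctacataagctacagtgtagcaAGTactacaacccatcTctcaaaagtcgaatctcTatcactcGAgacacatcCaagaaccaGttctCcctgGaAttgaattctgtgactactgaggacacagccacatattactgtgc
Ighv3-1: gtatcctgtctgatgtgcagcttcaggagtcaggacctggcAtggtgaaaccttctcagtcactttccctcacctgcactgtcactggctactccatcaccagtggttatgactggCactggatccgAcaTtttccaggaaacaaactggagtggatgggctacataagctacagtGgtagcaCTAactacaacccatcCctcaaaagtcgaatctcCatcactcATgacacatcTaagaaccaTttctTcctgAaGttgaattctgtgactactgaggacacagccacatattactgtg
Ighv7-2: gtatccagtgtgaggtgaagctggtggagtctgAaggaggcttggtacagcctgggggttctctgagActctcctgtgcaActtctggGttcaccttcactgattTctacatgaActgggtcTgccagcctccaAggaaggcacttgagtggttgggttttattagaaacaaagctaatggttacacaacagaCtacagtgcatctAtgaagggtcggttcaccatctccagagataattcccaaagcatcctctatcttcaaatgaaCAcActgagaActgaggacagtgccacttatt
Ighv7-3: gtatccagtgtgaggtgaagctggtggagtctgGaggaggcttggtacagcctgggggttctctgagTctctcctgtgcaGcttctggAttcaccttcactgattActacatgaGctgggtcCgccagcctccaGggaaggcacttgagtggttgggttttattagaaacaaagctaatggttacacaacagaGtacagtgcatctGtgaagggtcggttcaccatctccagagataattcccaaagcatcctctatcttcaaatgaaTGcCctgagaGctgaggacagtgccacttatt

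The second set holds the Ighv10 family, of which Ighv10-3 fell and Ighv10-1 did not pass the test below, at chr12:114523454-114523753 and chr12:114479018-114479317. Their whole V exons were 96.8% identical, and capitals again mark the bases that differ. Ighv9-3 (chr12:114140697-114140996), the segment with the most reads, is shown without capitals. Ighv5-1 (chr12:113572934-113573233), the member nearest to J and an annotated pseudogene, has its first in-frame stop codon in capitals, with the reading frame carried over from Ighv5-4 by alignment.
Ighv10-3: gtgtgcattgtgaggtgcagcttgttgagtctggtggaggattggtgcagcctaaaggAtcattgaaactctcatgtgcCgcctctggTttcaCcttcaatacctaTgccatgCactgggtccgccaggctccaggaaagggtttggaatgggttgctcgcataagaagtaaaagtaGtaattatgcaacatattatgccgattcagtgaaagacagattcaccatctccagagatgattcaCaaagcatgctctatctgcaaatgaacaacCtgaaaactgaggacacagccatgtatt
Ighv10-1: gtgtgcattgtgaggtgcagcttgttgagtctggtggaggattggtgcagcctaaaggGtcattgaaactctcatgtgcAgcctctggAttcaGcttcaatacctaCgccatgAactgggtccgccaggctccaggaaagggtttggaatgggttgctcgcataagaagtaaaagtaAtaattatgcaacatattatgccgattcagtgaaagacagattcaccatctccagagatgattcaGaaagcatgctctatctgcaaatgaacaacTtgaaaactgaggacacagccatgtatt
Ighv9-3: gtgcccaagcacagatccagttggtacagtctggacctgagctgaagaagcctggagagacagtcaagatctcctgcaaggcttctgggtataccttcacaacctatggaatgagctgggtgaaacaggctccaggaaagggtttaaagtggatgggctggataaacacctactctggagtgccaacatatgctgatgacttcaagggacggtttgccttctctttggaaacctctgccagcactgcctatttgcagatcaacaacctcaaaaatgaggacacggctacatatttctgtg
Ighv5-1: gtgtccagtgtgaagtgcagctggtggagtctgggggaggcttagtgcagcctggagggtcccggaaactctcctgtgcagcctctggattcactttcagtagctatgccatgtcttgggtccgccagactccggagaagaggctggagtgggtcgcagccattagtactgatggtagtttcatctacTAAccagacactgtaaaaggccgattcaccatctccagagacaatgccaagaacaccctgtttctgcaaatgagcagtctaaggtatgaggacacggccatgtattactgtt

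Recovered reads per library ranged from 31937372 to 49603193 in cKO MED1 and from 54736580 to 61149274 in WT. Reads on all Ighv rows made up 0.231 to 0.316% of the library in cKO MED1 and 0.287 to 0.482% in WT, and WT 3 had the highest share. Med1, the targeted gene, had 2585, 2172, 2249.5 and 2436 normalised reads in cKO MED1 1 to 4, against 4755.5, 4173 and 4210.1 in WT 1 to 3 (limma log2 fold change -0.89 ± 0.09 SE, adjusted p = 0.000174). Normalised reads are reads scaled with TMM factors to a common library of 48019763. Of 6 B cell markers, 5 fell in cKO MED1, where 14.6% of all genes tested fell. The summed level of the 6 was 117532 to 132624 normalised reads in cKO MED1 and 167756 to 180920 in WT. Of 6 T cell markers, 5 were tested and none passed with limma, with 2 at an unadjusted p under 0.05 and 1 called by edgeR. The summed level of these 6 T cell markers was 27 to 143 normalised reads in cKO MED1 and 29 to 50 in WT. The 6 myeloid markers summed to 159 to 346 in cKO MED1 and 158 to 301 in WT, and none of the 4 that were tested passed with limma or edgeR or reached an unadjusted p under 0.05. No marker on these lists was at 0 in all 7 libraries.

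Segments outside Ighv1 held more of the Ighv reads in cKO MED1 than in WT. Their share of all Ighv reads was 63.2, 60.0, 61.9 and 66.4% in cKO MED1 1 to 4, against 39.4, 40.9 and 41.7% in WT 1 to 3. The means were 62.9 ± 2.69% in cKO MED1 (SD, n = 4) and 40.6 ± 1.18% in WT (SD, n = 3), the groups did not overlap, and the remainder, almost all of it Ighv1, moved the other way by construction. Left without Ighv4, the family that varied most between cKO MED1 libraries, the share was 60.6, 58.5, 60.1 and 54.4% in cKO MED1 1 to 4, against 39.0, 40.5 and 41.3% in WT 1 to 3. On the scale of normalised reads, which is set by the whole library and not by the Ighv total, the segments outside Ighv1 summed to 91697, 73177, 101128 and 89579 in cKO MED1 1 to 4, against 51291, 53092 and 87742 in WT 1 to 3. These sums overlap, since WT 3 stood above cKO MED1 2. The Ighv1 rows summed to 53344, 48706, 62214 and 45224 in cKO MED1 1 to 4, against 79025, 76634 and 122826 in WT 1 to 3, without overlap. All Ighv rows together overlapped between the groups, at 121902 to 163362 in cKO MED1 and 129738 to 210574 in WT.

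Gene by gene, 58 of the 68 segments passed the filter on low counts and were tested with the rest of the transcriptome, and the other 10 had 18 to 66 reads in all. The filter asked for a level of about 10 reads in 3 libraries. Ighv2-7, Ighv5-1, Ighv6-7, Ighv7-2, Ighv8-4, Ighv8-11, Ighv11-1, Ighv12-1 and Ighv12-2 reached it in fewer than 3 WT libraries and so were let in by the cKO MED1 libraries. Their values are given below as a description, with no test. With limma at a Benjamini-Hochberg adjusted p of 0.05, 33 of the 58 (56.9%) passed, 31 of them higher and 2 lower in cKO MED1. Among the 49 that did not need the cKO MED1 libraries to be tested, 23 were higher and 2 lower. These counts describe tested segments and not all members. Over all 18062 genes tested, 28.0% passed, 13.4% higher and 14.6% lower. edgeR's quasi-likelihood test called the same 33 segments and 29.6% of all genes. The median log2 fold change was 0.71 over the 58 segments and 0.04 over all genes tested. The split depends on the scaling. With the authors' size factors 29 rose and 8 fell, where 31.7% of all genes passed. With scaling to total reads 28 rose and 10 fell, where 35.6% of all genes passed. When libraries were scaled to their Ighv reads 28 rose and none fell, where 11.3% of all genes passed. With the last scaling 36 segments had an unadjusted p under 0.05, and the total-read scaling moved the median of all genes to -0.21. In 30 of the 58 the groups did not overlap, 28 with all cKO MED1 libraries above all WT libraries and 2 with all below. Of all genes tested, 39.1% had no overlap, 19.3% with cKO MED1 above and 19.8% with it below. The 28 include every segment that the cKO MED1 libraries let in except Ighv2-7. The median and the counts under each scaling also cover such segments, for which the filter favoured a higher level in cKO MED1. The spread around the group means was wider in these segments than in most genes, with a median residual SD of 0.39 log2 units against 0.20.

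**Figure D1:**
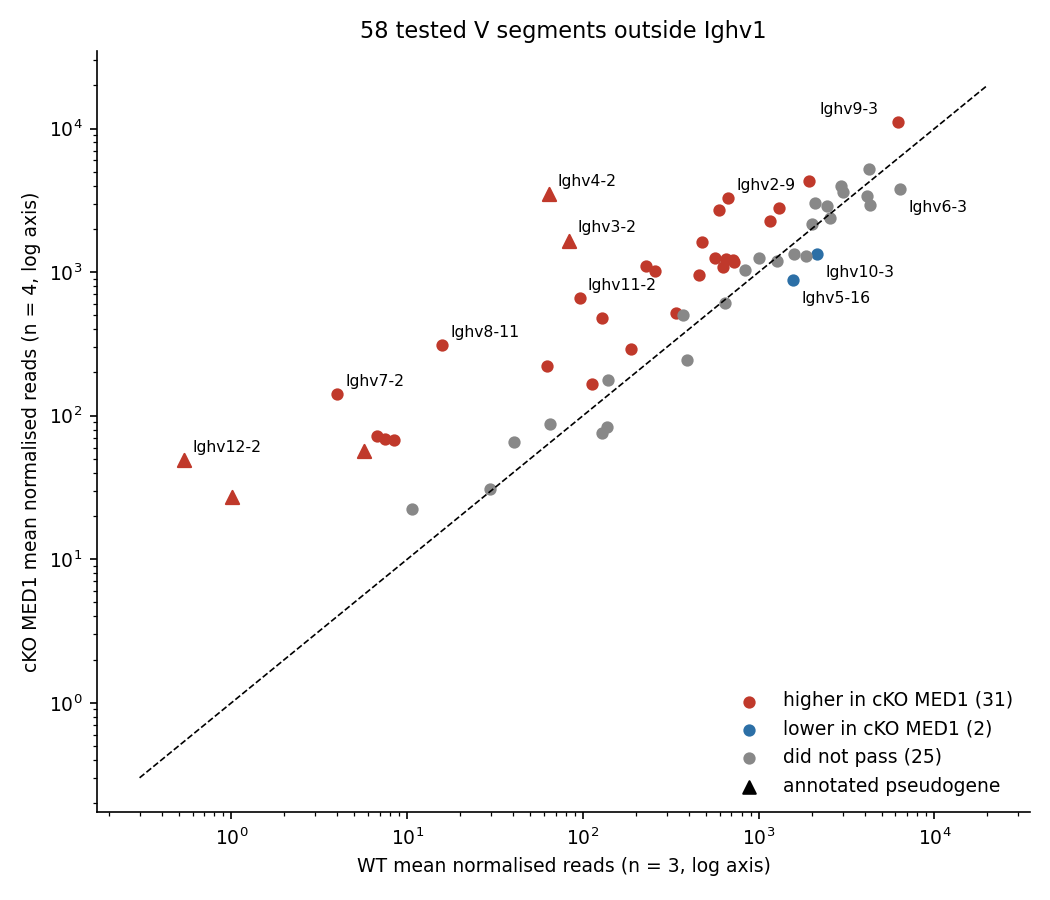
Mean normalised reads in cKO MED1 (vertical, n = 4) against WT (horizontal, n = 3) for the 58 tested segments, both axes logarithmic, with the dashed line at equal levels. The 31 segments that rose lie above the line from about the lowest WT levels up to Ighv9-3, and the 2 that fell lie below it. Segments with a WT mean up to 15.9, that of Ighv8-11, were let in by the cKO MED1 libraries and are shown as a description. Of the other risen segments, Ighv3-5 had the lowest WT mean, 62.5. Triangles mark the 5 annotated pseudogenes that were tested.

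The sex of the libraries moved with the genotype: Y-linked reads marked cKO MED1 1, 2 and 4 as female, and cKO MED1 3 and all 3 WT libraries as male. With sex as a covariate the genotype contrast rests on cKO MED1 3, and 16 segments passed, all of them higher, where 1.26% of all genes passed. The 16 were all among the 31 above. The 17 calls lost with sex in the fit were those of Ighv2-5, Ighv2-6, Ighv3-5, Ighv4-1, Ighv4-2, Ighv5-2, Ighv5-6, Ighv5-15, Ighv5-16, Ighv7-1, Ighv8-4, Ighv8-5, Ighv10-3, Ighv11-1, Ighv11-2, Ighv12-1 and Ighv14-4. For Ighv4-2 the log2 fold change was then 4.81 (limma adjusted p = 0.067) and for Ighv7-1 it was 1.95 (limma adjusted p = 0.152).

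By family, 10 of the 14 had a higher share of Ighv reads in every cKO MED1 library than in any WT library, and Ighv13 had a lower one. Each share was tested by exact permutation (two-sided, difference of group means) over all 35 assignments of the 7 libraries, and this cannot give a p under 0.0286. Ighv2, Ighv5, Ighv7, Ighv9 and Ighv14 reached that p, and with adjustment over the 14 families each had an adjusted p of 0.08, so that no family passed 0.05. On log2 shares, 9 families had an adjusted exact permutation p of 0.0444. On shares of all reads, and not of Ighv reads, the adjusted exact permutation p was 0.24 or more in every family.

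**Figure D2:**
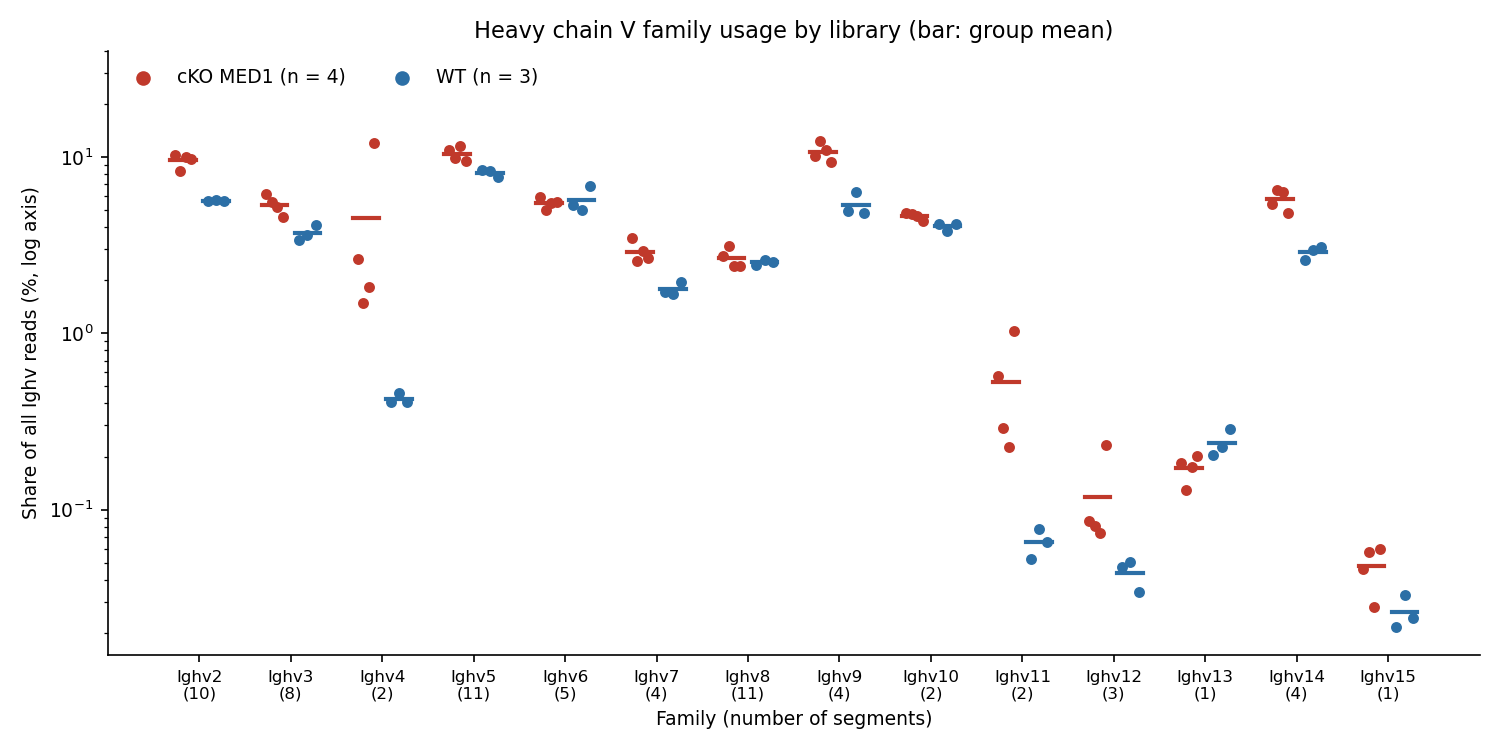
Share of all Ighv reads (percent, logarithmic axis) of each of the 14 families in every library, with the number of segments under the family's name and a bar at the group mean. In Ighv2, Ighv7, Ighv9 and Ighv14 the 4 cKO MED1 libraries lie close together and above the 3 WT libraries, in Ighv4, Ighv11 and Ighv12 cKO MED1 4 stands highest, and in Ighv6, Ighv8 and Ighv15 the groups overlap.

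Ighv9 had a share of 10.1, 12.3, 11.0 and 9.30% in cKO MED1 1 to 4, against 4.96, 6.29 and 4.83% in WT 1 to 3, with means of 10.7 ± 1.30% in cKO MED1 (SD, n = 4) and 5.36 ± 0.807% in WT (SD, n = 3) (exact permutation p = 0.0286, adjusted p = 0.08). Of its 4 segments 3 rose and none fell, where 13.4% of all genes rose and 14.6% fell. Ighv9-3, the segment with the most reads outside Ighv1, had 10701, 10984, 13257 and 9213 normalised reads in cKO MED1 1 to 4, against 4961, 6003 and 7750.3 in WT 1 to 3 (limma log2 fold change 0.84 ± 0.15 SE, adjusted p = 0.00469). All cKO MED1 libraries stood above all WT libraries, and per kb of exon the segment ranked 1 among the 68 in cKO MED1 and 2 in WT. Ighv9-2 had 1100.3, 1154, 1304 and 822 normalised reads in cKO MED1 1 to 4, against 115, 260.3 and 306 in WT 1 to 3 (limma log2 fold change 2.36 ± 0.28 SE, adjusted p = 0.000382). Its fold change was larger than that of Ighv9-3, from a WT level that was far lower. Ighv9-1 also rose, by 0.99 on the log2 scale, while Ighv9-4, the farthest of the family from J, had a log2 fold change of -0.03 and overlapping groups.

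Ighv14 had a share of 5.38, 6.47, 6.32 and 4.80% in cKO MED1 1 to 4, against 2.60, 2.96 and 3.10% in WT 1 to 3 (exact permutation p = 0.0286, adjusted p = 0.08), a ratio of 1.99 between the means. Ighv14-1, Ighv14-3 and Ighv14-4 rose, by 1.16, 1.13 and 0.81 on the log2 scale, and none of them overlapped. Ighv14-2, the segment of the family with the most reads, had 2894, 2786, 4009 and 2359 normalised reads in cKO MED1 1 to 4, against 1404, 1761 and 3102 in WT 1 to 3 (limma log2 fold change 0.58 ± 0.24 SE, adjusted p = 0.0822). WT 3 lay above 3 of the 4 cKO MED1 libraries, and without that library the adjusted p was 0.00609.

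Ighv2, a family near the D segments, had a share of 10.2, 8.33, 10.0 and 9.71% in cKO MED1 1 to 4, against 5.59, 5.72 and 5.62% in WT 1 to 3 (exact permutation p = 0.0286, adjusted p = 0.08). Of its 10 segments 9 were tested, 4 rose and none fell, where 13.4% of all genes rose and 14.6% fell. Ighv2-9 had 3611, 2522, 3838 and 3080.1 normalised reads in cKO MED1 1 to 4, against 466, 569 and 981 in WT 1 to 3 (limma log2 fold change 2.33 ± 0.22 SE, adjusted p = 8.46e-05). Its groups were far apart, and its share of Ighv reads averaged 2.30% in cKO MED1 and 0.421% in WT. Ighv2-6-8 rose by 1.88 and Ighv2-5 by 0.91, both without overlap, while Ighv2-6 rose by 0.73 with WT 3 above 1 cKO MED1 library. Ighv2-2, the family's most abundant segment and among those nearest to D, had 3665, 2836, 4341 and 3523 normalised reads in cKO MED1 1 to 4, against 2367, 2572 and 4079.9 in WT 1 to 3 (limma log2 fold change 0.28 ± 0.18 SE, adjusted p = 0.249). The groups overlapped there and in Ighv2-3, Ighv2-4, Ighv2-7 and Ighv2-9-1. In Ighv2-3, Ighv2-4 and Ighv2-9-1 the log2 fold changes ran from -0.05 to 0.44 and did not pass.

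Ighv7 had a share of 3.45, 2.58, 2.94 and 2.67% in cKO MED1 1 to 4, against 1.71, 1.68 and 1.95% in WT 1 to 3 (exact permutation p = 0.0286, adjusted p = 0.08). Ighv7-3, which held 78.0% of the family's reads, had 2879.5, 2448, 3615 and 2685 normalised reads in cKO MED1 1 to 4, against 1953, 1882 and 3504 in WT 1 to 3 (limma log2 fold change 0.30 ± 0.20 SE, adjusted p = 0.272), with WT 3 inside the range of cKO MED1. Its share of Ighv reads averaged 2.05% in cKO MED1 and 1.54% in WT. Ighv7-1, which encodes a well-studied class of mouse antibodies to phosphorylcholine, had 1890.3, 544, 936 and 674 normalised reads in cKO MED1 1 to 4, against 179.7, 194 and 401 in WT 1 to 3 (limma log2 fold change 1.89 ± 0.38 SE, adjusted p = 0.00659). The groups did not overlap, and cKO MED1 1 was the highest library. Ighv7-2, annotated as an intact V gene and shown above beside Ighv7-3, had 159.9, 112, 158 and 137 normalised reads in cKO MED1 1 to 4, against 1.38, 8.98 and 1.60 in WT 1 to 3, with a ratio of 35.6 between the means. In WT it had 15 reads in all, over 3 libraries of greater depth, against 428 in cKO MED1. Ighv7-4 had a cKO MED1 mean of 0.595 times the WT mean and did not pass.

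Ighv5, which has the V segments nearest to D, had a share of 10.9, 9.84, 11.6 and 9.48% in cKO MED1 1 to 4, against 8.42, 8.35 and 7.68% in WT 1 to 3 (exact permutation p = 0.0286, adjusted p = 0.08). As a share of all reads, and not of Ighv reads, the difference turned to -0.000121 percentage points. Of 10 tested segments 6 rose and 1 fell, where 13.4% of all genes rose and 14.6% fell. The 6 include Ighv5-1, which the cKO MED1 libraries let in. Ighv5-6 had 5485, 3211, 5259 and 3184.4 normalised reads in cKO MED1 1 to 4, against 1615, 1742 and 2474 in WT 1 to 3 (limma log2 fold change 1.12 ± 0.21 SE, adjusted p = 0.00522) and ranked 3 per kb of exon in cKO MED1 and 13 in WT. Ighv5-9, Ighv5-12 and Ighv5-15 rose by 0.77, 1.07 and 0.62 without overlap. Ighv5-2, the D-proximal segment known for frequent rearrangement in early B cell progenitors, had 198, 133, 150.1 and 183 normalised reads in cKO MED1 1 to 4, against 95.7, 104 and 136 in WT 1 to 3 (limma log2 fold change 0.56 ± 0.18 SE, adjusted p = 0.0397). Its cKO MED1 2 lay below WT 3, and the call was lost in 13 of 21 other settings. Ighv5-17, the most abundant of the family, had 3436, 2684, 4143 and 3236 normalised reads in cKO MED1 1 to 4, against 3498, 3509 and 5399 in WT 1 to 3 (limma log2 fold change -0.28 ± 0.17 SE, adjusted p = 0.223), and Ighv5-4 had 1490.5, 2179.5, 3765 and 2106 normalised reads in cKO MED1 1 to 4, against 2416, 2197 and 3000.5 in WT 1 to 3 (limma log2 fold change -0.16 ± 0.24 SE, adjusted p = 0.631). In both the groups overlapped.

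Ighv5-16 and Ighv10-3 were the 2 segments that fell. Ighv5-16 had 985, 760.3, 940.3 and 822 normalised reads in cKO MED1 1 to 4, against 1178, 1246 and 2267 in WT 1 to 3 (limma log2 fold change -0.77 ± 0.20 SE, adjusted p = 0.0172). Ighv10-3 had 1348, 1143, 1619 and 1257 normalised reads in cKO MED1 1 to 4, against 1844, 1706 and 2927 in WT 1 to 3 (limma log2 fold change -0.65 ± 0.17 SE, adjusted p = 0.0209). The groups did not overlap in either, but the highest library of each was WT 3. Neither passed when libraries were scaled to their Ighv reads (limma adjusted p = 0.127 and 0.252) or when cKO MED1 4 was left out (limma adjusted p = 0.051 and 0.0616). Ighv10-1, whose V exon differs from that of Ighv10-3 at 9 of the 300 bases printed above, had 5607, 4664, 5903 and 4606 normalised reads in cKO MED1 1 to 4, against 3573, 3252 and 5878 in WT 1 to 3 (limma log2 fold change 0.34 ± 0.18 SE, adjusted p = 0.168). It did not pass, with WT 3 above 3 cKO MED1 libraries. Ighv10-1 held 72.2% of the family's reads. The family's share was 4.79, 4.76, 4.604 and 4.35% in cKO MED1 1 to 4, against 4.16, 3.82 and 4.18% in WT 1 to 3, higher in cKO MED1 (exact permutation p = 0.0571, adjusted p = 0.1), but the difference was -0.425 percentage points without the largest segment and -0.00194 as a share of all reads.

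Ighv4 had the largest ratio of shares and the widest spread. Its share was 2.64, 1.48, 1.82 and 12.02% in cKO MED1 1 to 4, against 0.409, 0.456 and 0.405% in WT 1 to 3 (exact permutation p = 0.114, adjusted p = 0.133). The groups did not overlap, but cKO MED1 4 stood far above the other cKO MED1 libraries: the ratio of the means was 10.6 with it and 4.68 without it, when Ighv11 had the larger ratio, 5.54. This library also had the fewest reads and the highest share of the mitochondrial ribosomal RNA mt-Rnr2, at 35.5% of reads, against 21.0 to 32.4% in cKO MED1 1 to 3 and 17.7 to 22.45% in WT, and the part of that in its Ighv4 level was not tested. Ighv4-2 had 1226, 913, 1642 and 10135 normalised reads in cKO MED1 1 to 4, against 28.2, 80.8 and 83.0 in WT 1 to 3 (limma log2 fold change 5.15 ± 0.67 SE, adjusted p = 0.000788). Without cKO MED1 4 its mean was 1261 ± 366 normalised reads in cKO MED1 (SD, n = 3) and 64.0 ± 31.0 in WT (SD, n = 3). Ighv4-1 had 2603, 889, 1337 and 6074 normalised reads in cKO MED1 1 to 4, against 505, 511 and 770.5 in WT 1 to 3 (limma log2 fold change 1.83 ± 0.49 SE, adjusted p = 0.0213), with cKO MED1 4 again the highest library. In the reference build the V exon of Ighv4-2 has an in-frame stop codon, TGA, that begins at base 150 of the sequence above, in the frame of Ighv4-1.

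Of the 68 segments 10 are annotated as pseudogenes, and their share of Ighv reads was 2.27, 2.15, 2.23 and 8.64% in cKO MED1 1 to 4, against 0.0639, 0.194 and 0.0967% in WT 1 to 3. Nearly all of it was Ighv4-2, which averaged 2.53% in cKO MED1 and 0.0411% in WT, and Ighv3-2, which averaged 1.17% in cKO MED1 and 0.0557% in WT. The other 8 were rare and did not all go the same way: the ratio of cKO MED1 to WT means was 0.849 in Ighv2-1, 0.795 in Ighv5-21 and 0.364 in Ighv8-7, none of which was tested. The 58 segments annotated as V genes had a share of 61.0, 57.9, 59.7 and 57.8% in cKO MED1 1 to 4, against 39.3, 40.7 and 41.6% in WT 1 to 3, also without overlap, so the groups stood apart without the pseudogenes too. Ighv3-2 had 1892, 1580.1, 1835 and 1310.4 normalised reads in cKO MED1 1 to 4, against 26.2, 139.5 and 83.0 in WT 1 to 3 (limma log2 fold change 4.58 ± 0.41 SE, adjusted p = 5.98e-05). In its reading frame, carried over from Ighv3-1 by alignment, the first stop codon is TGA at base 258 of the V exon, after the missing base. Ighv12-2 had 42.0, 37.0, 39.5 and 76.9 normalised reads in cKO MED1 1 to 4, against 0, 0.816 and 0.798 in WT 1 to 3. In WT it had 2 reads in all, against 141 in cKO MED1. Ighv12-1 had 13.6, 9.75, 38.2 and 47.6 normalised reads in cKO MED1 1 to 4, against 1.38, 1.63 and 0 in WT 1 to 3, with 4 WT reads. Ighv5-1, whose stop codon TAA begins at base 189, had 69.1, 56.5, 56.6 and 45.8 normalised reads in cKO MED1 1 to 4, against 4.13, 4.90 and 7.98 in WT 1 to 3. In Ighv3-2 and Ighv4-2 every cKO MED1 library stood above every WT library, as in 19.3% of all genes tested. The same held in Ighv5-1, Ighv12-1 and Ighv12-2, which the cKO MED1 libraries let in and which count only as a description.

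**Figure D3:**
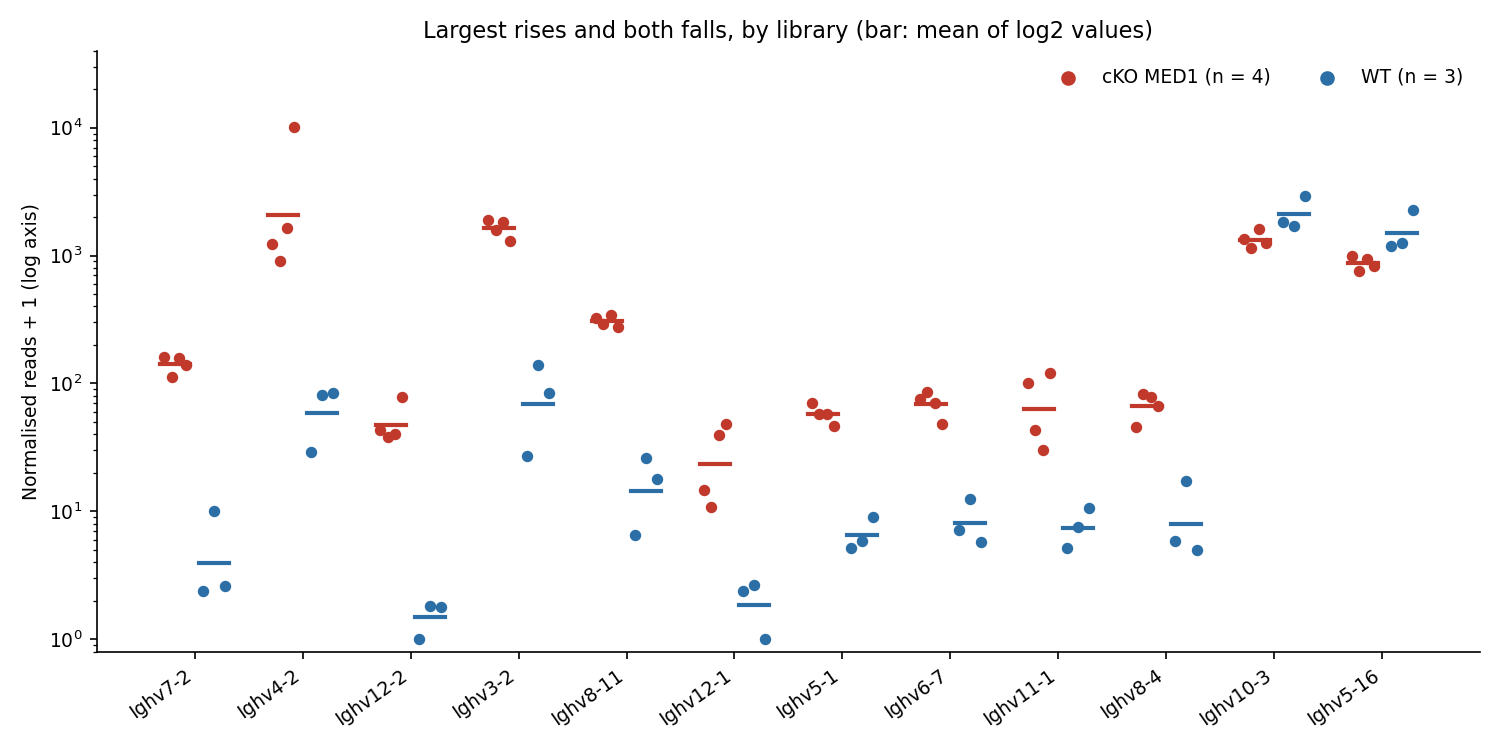
Normalised reads plus 1 (logarithmic axis) in each library for the 10 segments with the largest rises on the log2(normalised reads + 1) scale and the 2 that fell, with a bar at the mean of the log2 values. In each of the 10 the cKO MED1 libraries lie above all WT libraries, and in Ighv10-3 and Ighv5-16 they lie below them. Of the 10, all but Ighv4-2 and Ighv3-2 were let in by the cKO MED1 libraries and are shown as a description. cKO MED1 4 stands apart from its group in Ighv4-2, at 10135 normalised reads.

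Ighv11 and Ighv12 include the segments best known from B-1 cells, the self-renewing B cells in which Ighv11-2 and Ighv12-3 encode antibodies to phosphatidylcholine. Ighv11-2 had 726, 311, 339.8 and 1266 normalised reads in cKO MED1 1 to 4, against 64.0, 94.7 and 128 in WT 1 to 3 (limma log2 fold change 2.59 ± 0.42 SE, adjusted p = 0.00259). The groups did not overlap, and cKO MED1 4 and 1 were the highest. With sex as a covariate the call was lost, at a log2 fold change of 1.87 (limma adjusted p = 0.159). Ighv11-1 had 100.3, 41.9, 29.0 and 119 normalised reads in cKO MED1 1 to 4, against 4.13, 6.53 and 9.58 in WT 1 to 3, also without overlap. Ighv12-3 had 69.1, 51.7, 42.1 and 188 normalised reads in cKO MED1 1 to 4, against 59.9, 62.8 and 71.1 in WT 1 to 3 (limma log2 fold change 0.18 ± 0.41 SE, adjusted p = 0.756). Only cKO MED1 4 stood above the WT range, and without that library the log2 fold change was -0.25. Of 6 markers of B-1 cells, Spn fell by 0.55 on the log2 scale and none rose. Their summed level was 7343 to 8512 normalised reads in cKO MED1 and 7927 to 8806 in WT, and Cd5 had 32.5, 26.3, 14.5 and 36.6 normalised reads in cKO MED1 1 to 4, against 13.8, 18.8 and 22.4 in WT 1 to 3. Of all genes tested, 13.4% rose and 14.6% fell. Of 8 marginal zone markers, 5 rose (Cr2, Cd1d1, Cd9, Dtx1 and Myof) and 2 fell (S1pr1 and Notch2). The 8 summed to 13843 to 16769 in cKO MED1 and 13251 to 13959 in WT. The part of such cells in the V segment levels was not tested.

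Ighv3 had a share of 6.14, 5.52, 5.23 and 4.59% in cKO MED1 1 to 4, against 3.39, 3.62 and 4.09% in WT 1 to 3 (exact permutation p = 0.0571, adjusted p = 0.1). Besides Ighv3-2, its segments Ighv3-5 and Ighv3-8 rose, by 1.92 and 1.81 on the log2 scale, without overlap. Ighv3-6, with 55.5% of the family's reads, had 3431, 2516, 3516 and 2315 normalised reads in cKO MED1 1 to 4, against 3236, 3336 and 6282 in WT 1 to 3 (limma log2 fold change -0.49 ± 0.22 SE, adjusted p = 0.11), and ranked 10 per kb of exon in cKO MED1 and 3 in WT. It did not pass, but fell with the authors' size factors (limma adjusted p = 0.0391).

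Ighv6 overlapped between the groups as a family, and neither of its main segments passed. Its share was 5.94, 5.03, 5.49 and 5.57% in cKO MED1 1 to 4, against 5.35, 5.02 and 6.84% in WT 1 to 3 (exact permutation p = 0.771, adjusted p = 0.771). Ighv6-3, ranked 5 per kb of exon in cKO MED1 and 1 in WT, had 4248, 3093, 4117 and 3664 normalised reads in cKO MED1 1 to 4, against 4662, 4147 and 10227 in WT 1 to 3 (limma log2 fold change -0.63 ± 0.25 SE, adjusted p = 0.0759). WT 3 stood far above the other WT libraries. Ighv6-6 had 4287, 2954, 4781 and 3779 normalised reads in cKO MED1 1 to 4, against 2295, 2344 and 4159 in WT 1 to 3 (limma log2 fold change 0.46 ± 0.21 SE, adjusted p = 0.107), and the groups overlapped in both. Ighv6-7 had 74.5, 84.8, 69.8 and 47.6 normalised reads in cKO MED1 1 to 4, against 6.196, 11.4 and 4.79 in WT 1 to 3, without overlap. Without Ighv6-3 the family's share was 0.975 percentage points higher in cKO MED1.

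Ighv8, the family that reaches farthest from J, had a share of 2.75, 3.13, 2.42 and 2.41% in cKO MED1 1 to 4, against 2.45, 2.62 and 2.55% in WT 1 to 3 (exact permutation p = 0.657, adjusted p = 0.708), with overlap. Its main segment Ighv8-8 had 1489, 1282, 1351 and 1082 normalised reads in cKO MED1 1 to 4, against 1429, 1599 and 2575 in WT 1 to 3 (limma log2 fold change -0.48 ± 0.18 SE, adjusted p = 0.0622). Ighv8-11, a minor segment in WT, had 325, 291, 345 and 274 normalised reads in cKO MED1 1 to 4, against 5.51, 25.3 and 16.8 in WT 1 to 3. Ighv8-4 had 44.7, 81.9, 77.7 and 65.9 normalised reads in cKO MED1 1 to 4, against 4.82, 16.3 and 3.99 in WT 1 to 3. Both stood apart between the groups, while Ighv8-5 rose by 0.66 with WT 3 above 1 cKO MED1 library, a call that was lost in 10 of 21 other settings. Ighv13-2, the 1 member of its family, had 267, 157, 284 and 273 normalised reads in cKO MED1 1 to 4, against 267, 295 and 605 in WT 1 to 3 (limma log2 fold change -0.60 ± 0.28 SE, adjusted p = 0.117), and its share was lower in every cKO MED1 library, at 0.184, 0.129, 0.174 and 0.202% in cKO MED1 1 to 4, against 0.205, 0.227 and 0.287% in WT 1 to 3 (exact permutation p = 0.0571, adjusted p = 0.1). Ighv15-2 had 66.4, 70.2, 46.1 and 80.5 normalised reads in cKO MED1 1 to 4, against 28.2, 42.4 and 51.1 in WT 1 to 3 (limma log2 fold change 0.70 ± 0.27 SE, adjusted p = 0.0673), with overlap.

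Along the locus, shares stood apart in the near and middle part and overlapped in the far part. The 68 segments lie between 143.1 and 2378.6 kb from the J segments, all on the minus strand. Members within 500 kb of J had a share of Ighv reads of 20.8 ± 1.88% in cKO MED1 (SD, n = 4) and 14.0 ± 0.403% in WT (SD, n = 3). Those from 500 to 1000 kb had 31.9 ± 3.43% in cKO MED1 and 18.2 ± 1.32% in WT, and those from 1000 to 1500 kb had 7.63 ± 0.29% in cKO MED1 and 6.02 ± 0.264% in WT. In these 3 ranges the groups did not overlap. Beyond 1500 kb, where the members are all of Ighv8, the share was 2.55 ± 0.342% in cKO MED1 and 2.45 ± 0.0864% in WT, with overlap. Across the 58 tested segments the log2 fold change showed little relation to distance, with a Spearman rho of -0.12 and a Pearson r of 0.0024. These are given as a description of segments that share their libraries.

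**Figure D4:**
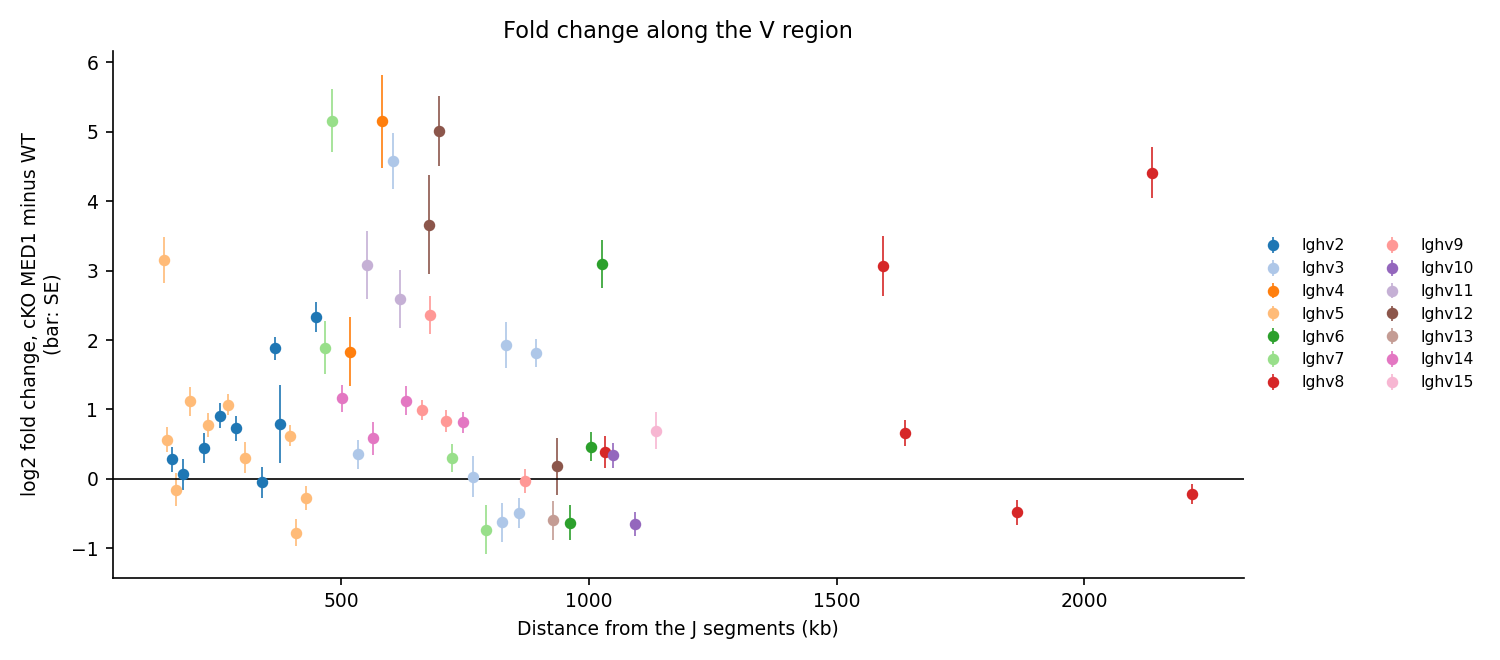
Log2 fold change (cKO MED1 minus WT, with SE) of the 58 tested segments against distance from the J segments in kb, coloured by family. Rises of more than 2 on the log2 scale (13 segments) occur from Ighv5-1 at 143 kb out to Ighv8-11 at 2137 kb, among neighbours near 0. Of the 13, Ighv2-9, Ighv3-2, Ighv4-2, Ighv9-2 and Ighv11-2, from 449 to 679 kb, did not need the cKO MED1 libraries to be tested. The others, both ends among them, were let in by those libraries and are shown as a description.

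For comparison, of 67 tested Ighv1 segments 19 rose and 28 fell, where 13.4% of all genes rose and 14.6% fell. Their median log2 fold change was -0.39. Other parts of the IgH transcript and its regulators were read from gene lists. Of 8 constant genes 6 fell and none rose, where 14.6% of all genes fell, and Ighm, the constant gene of IgM, had 821056, 696138, 920861 and 753264 normalised reads in cKO MED1 1 to 4, against 614085, 626429 and 993757 in WT 1 to 3, which overlapped. The 4 J segments summed to 3879 to 4938 normalised reads in cKO MED1 and 3567 to 5365 in WT, and none passed with limma or edgeR, with 1 at an unadjusted p under 0.05. Of 16 factors that bind V promoters or act on the IgH locus, 3 rose (Pou2f1, Tcf4 and Irf4, by 0.30, 0.41 and 0.41 on the log2 scale) and 6 fell (Pax5, Spib, Ikzf1, Yy1, Ctcf and Rad21, by 0.26 to 0.48). Pou2f1 binds the octamer of V promoters, and Pax5, Yy1, Ctcf and Rad21 are known for their part in bringing V segments near D and J in progenitor cells. Of 8 genes of antibody-secreting cells 2 rose (Prdm1 and Irf4) and 2 fell (Jchain and Sdc1), with sums of 95681 to 126227 in cKO MED1 and 114909 to 158636 in WT. Their part in the V segment levels was not tested.

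Similar segments can share reads. The V exon of a member was 65.6 to 98.7% identical to that of the nearest other segment of its own family, with a median of 94.45%. At 95% or more were 31 of the 68. A link between this identity and the rises was not tested. The labels do not say how reads that match several segments were counted, so levels of near-identical segments are uncertain, whereas family shares depend less on the split within a family. Within a group the order of the members was stable, with Spearman's rho between libraries of 0.945 to 0.986 in cKO MED1 and 0.985 to 0.99 in WT, and of 0.846 to 0.924 between the groups, over 68 segments as a description. No pair of libraries agreed within sampling noise, with a chi-square per degree of freedom of 13.2 or more in every pair of a group.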

How the data were processed

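Total RNA of 7 cultures was sequenced as paired reads of 150 bp from a stranded kit with 14 amplification cycles, per the labels' protocols. The authors deposited 1 table with 46959 features, a signal of read counts divided by 1 size factor per library. All values (100%) were whole multiples of their library's smallest step within 1e-06, so whole reads were recovered. The submitters' processing notes list the build GRCm38, the aligner STAR (2.4.0a), Subread (1.5.0-p3) with featureCounts, DESeq2, and R (3.4). Which tool made which step, the use of strand in counting and the handling of multiply mapped reads are not given in the sources used here. The phiX174 row (at most 0.000383% of reads) was left out.

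The design had named limma for this unit. Recovered reads were scaled with TMM factors of edgeR 4.0.16 from genes kept by filterByExpr, and limma 3.58.1 (R 4.3.3) with a trend was run on log2(normalised reads + 1), adjusted by Benjamini-Hochberg over 18062 genes. Fold changes are cKO MED1 minus WT on that scale, which understates changes of low genes. The limma code was tested on simulated data. Family shares are percent of reads on all Ighv rows and were compared with an exact permutation test, adjusted over 14 families. Alternatives were other scalings, filters and pseudocounts, edgeR, DESeq2 1.42.0, a replicate block, sex as a covariate, another threshold and each library left out. TMM factors from all genes were added after seeing the data.

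Named segments were the most abundant of each family, the 12 most abundant, the 10 largest rises, both falls, and Ighv11-2, Ighv12-3, Ighv5-2, Ighv2-2 and Ighv7-1. Others were named after their values were seen. The members and lists were chosen with earlier results of these data known. All 68 members matched GENCODE M21 by symbol, and V exons came from its transcripts.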

Additional observations from a re-analysis of the deposited data

Results flagged for a closer look

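In 45 groups of 4 libraries checked (14 family shares and 31 named segments in cKO MED1), 5 had a library far from the others by Dixon's test. Chance gives about 1 in 20 for each group, but the groups share libraries and reads, so the 5 are not independent. The Ighv4 and Ighv12 shares include Ighv4-2 and Ighv12-2, and all flags but that of Ighv13-2 fell on cKO MED1 4. cKO MED1 4 held an Ighv4 share of 12.02% of Ighv reads, against 1.48 to 2.64% in cKO MED1 1 to 3. It also held an Ighv12 share of 0.232%, against 0.0734 to 0.0860% in the other 3. In single segments, Ighv4-2 had 10135 normalised reads in cKO MED1 4 and 913 to 1642 in the other 3, and Ighv12-2 had 76.9 in cKO MED1 4 and 37.0 to 42.0 in the other 3. Ighv13-2 was low in cKO MED1 2, at 156.9 normalised reads, against 267 to 285 in the other 3.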

How the results depend on the processing

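The count of called segments (33) stayed within 1.5 times under the other settings, at 25 to 42, except with sex as a covariate, where 16 passed. Leaving out 1 library gave 28 to 42. It was 28 without WT 1 and 42 without WT 3, and 14 of the 33 kept their call in all 21 settings. edgeR called the same 33 segments. With the replicate number as a block 38 segments passed, where 20.7% of all genes did, and 0 families passed. Same-numbered libraries correlated at 0.51, -0.23 and 0.16, so the numbers were not read as pairs. Calls lower in cKO MED1 ranged from 0 to 10. For family shares, 0 of 14 passed, and 0 when any library was left out, since the exact test cannot then pass; 9 passed on log2 shares and 9 without the largest segment of each family. As shares of all reads Ighv2, Ighv3, Ighv7, Ighv9 and Ighv14 stayed higher in cKO MED1. Their adjusted exact permutation p was then 0.444, 0.831, 0.509, 0.24 and 0.333, in that order. Directions turned for shares of all reads in Ighv5 (-0.000121 points), Ighv8 (-0.00179) and Ighv10 (-0.00194), and without the largest segment in Ighv6 (0.975) and Ighv10 (-0.425). With 1 library left out they ranged from -0.0126 (without cKO MED1 2) to 0.227 points in Ighv8 and from -0.585 to 0.326 (without WT 3) in Ighv6. Among segments that did not pass, log2 fold changes turned in Ighv12-3 with total reads (-0.0598), the block (-0.272), sex (-0.601) and with 1 library left out (-0.25 to 0.463, lowest without cKO MED1 4). They turned with sex in Ighv5-17 (0.0341) and Ighv5-4 (0.582), and in Ighv5-4 with 1 library left out (-0.384 to 0.0253, highest without cKO MED1 1). The cause was not tested. Segments under about 10 reads per library are limited by counting error.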

Other observations

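Of the 10 segments too low to test, 4 did not overlap between the groups, a share near the 39.1% of all tested genes without overlap. Ighv8-13 had 5.42, 8.77, 7.90 and 3.66 normalised reads in cKO MED1 1 to 4, against 0.689, 0 and 0 in WT 1 to 3. It had 21 reads in cKO MED1 and 1 in WT, a level limited by counting error. Ighv3-7, an annotated pseudogene, had 42 reads in cKO MED1 and 4 in WT, and Ighv8-14, also a pseudogene, had 23 in cKO MED1 and 5 in WT. Ighv8-7, a pseudogene too, was the 1 segment of these 4 that was lower, with 15 reads in cKO MED1 and 51 in WT.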
